A study of Mus musculus with 4 samples.

Results

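The PPM family of protein phosphatases was followed here in mouse dendritic cells given SAHA. The genes are Ppm1a, Ppm1b, Ppm1d, Ppm1f, Ppm1g, Ppm1h, Ppm1j, Ppm1k, Ppm1l and Ppm1m, 10 of 18194 genes measured. They were chosen by family name with earlier results of these data known, so the choice was not blind to the values. Ppm1e and Ppm1n share the name but were placed among the other PPM family genes, which are given further below. The symbols of the 10 genes were carried by 25 probe sets. A probe set is the group of short probes by which the array reads 1 transcript. Each gene was read by whichever of its probe sets was brightest on average over the 4 arrays, in which both groups weigh the same, and the other 15 probe sets are given beside it. That mean is therefore a description and nothing is drawn from it.

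There were 4 arrays, 2 of SAHA-treated and 2 of control cells. SAHA cells were dendritic cells of C57BL/6 mice kept for 12 hours with SAHA (vorinostat), a hydroxamic acid that inhibits histone deacetylases, at a dose the labels write as 500 nm. Control cells had the diluent for the same 12 hours. In both groups marrow of at least 3 mice per experiment was grown for 7 days with the cytokines GM-CSF and IL-4 at 10 ng/ml each, and CD11c-positive cells were then selected to a stated purity of 95%. These are cells made in culture, and marrow of several mice entered each experiment. The titles call the 2 replicates of a group biological, and the labels do not describe what was separate between them. Each p-value thus rests on how far the replicates of a group lay apart, in the gene itself and across all genes.

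PPM phosphatases remove phosphate from serine and threonine and need magnesium or manganese ions to do so. They mostly act as single chains, unlike the PPP family (PP1, PP2A, calcineurin), whose catalytic subunits are steered by regulatory subunits. Several PPM enzymes are known to switch off stress kinase, NF-kB or SMAD signalling, pathways that dendritic cells use when they sense microbes and cytokines, whereas others work in mitochondria, in the nucleus or on small GTPases.

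With SAHA, 2 of the 10 genes rose and none fell. Ppm1j, a little-studied phosphatase of the same subgroup as Ppm1h and Ppm1m, rose 2.98-fold, and Ppm1k, the mitochondrial phosphatase that activates branched-chain amino acid breakdown, rose 2.29-fold. Over all genes 2.23% passed the same test, 1.52% on the higher side and 0.709% on the lower side (limma, Benjamini-Hochberg adjusted p under 0.05 over 18194 genes). The same 2 members were also those that changed at least 2-fold, where 2.56% of all genes did, 1.64% on the higher side. The other 8 genes had log2 changes (SAHA minus control) of -0.07 to 0.30, with adjusted p-values of 0.383 to 0.941. Read by their brightest probe sets, none of the 8 passed at an unadjusted p under 0.05 either, since the 2 members below that level were Ppm1j and Ppm1k. Each of these 8 changes, so read, had a 95% interval that held 0 and stayed inside a 2-fold change in either direction. A further probe set of Ppm1h, given below, had an interval that did not hold 0. The median log2 change of the 10 was 0.16, against -0.05 over all genes.

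**Figure D1:**
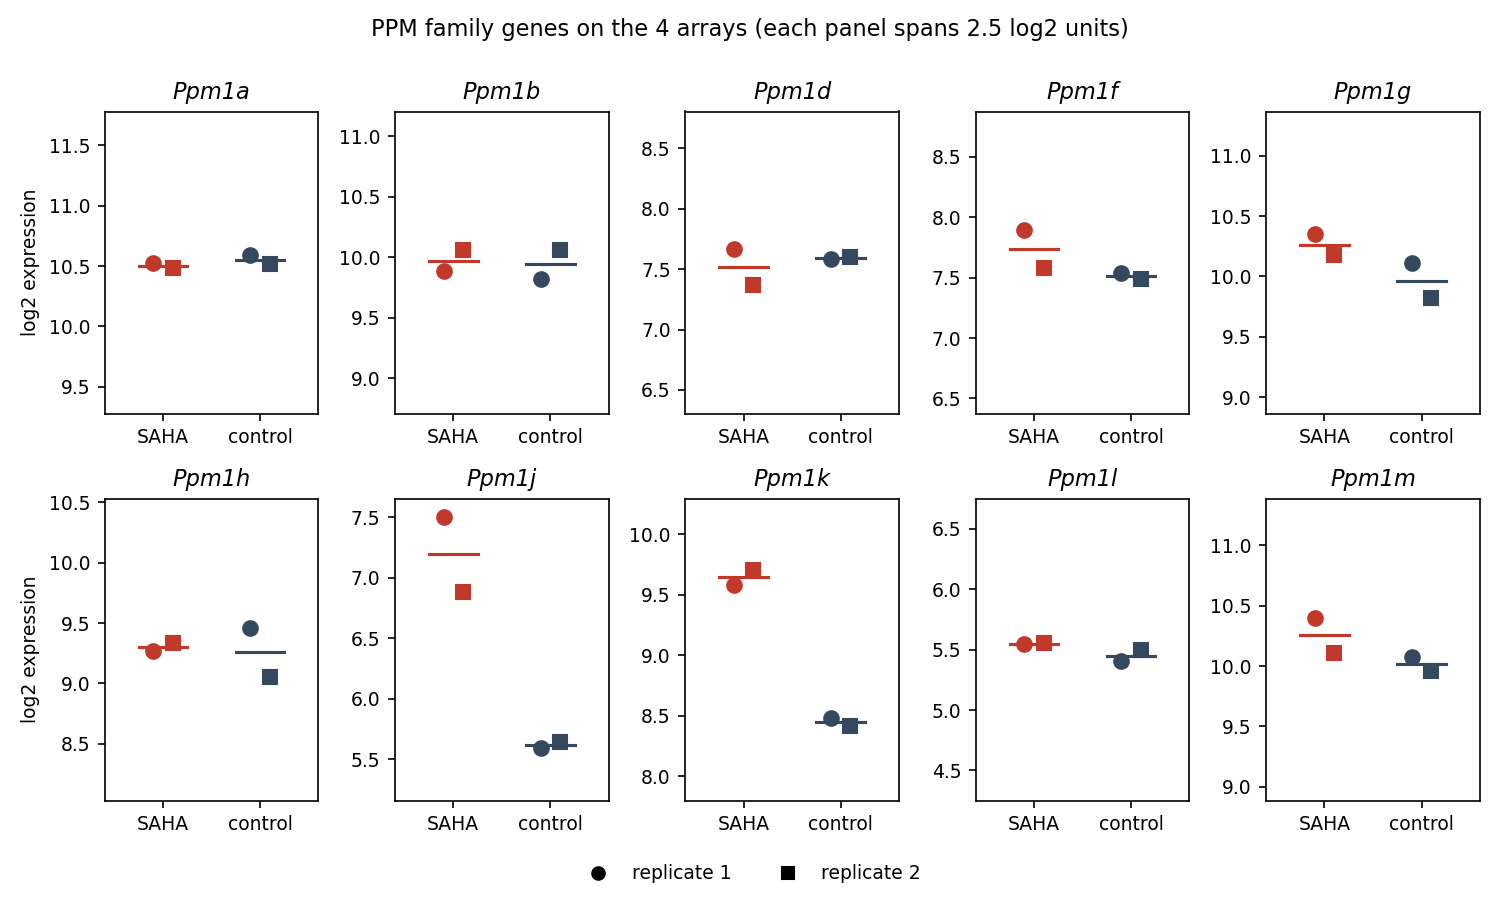
Log2 expression of the 10 PPM genes on the 4 arrays, 1 panel a gene, with SAHA left and control right. Circles are replicate 1, squares replicate 2, and bars the group means. Each panel spans 2.5 log2 units, so distances can be compared between panels and heights cannot. Ppm1j and Ppm1k show a wide gap between the groups.

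The arrays resembled each other closely. Across genes, which are not independent replicates, Pearson's r was 0.995 between the SAHA arrays, 0.993 between the control arrays and 0.982 to 0.989 between groups. Of 14 dendritic cell markers 13 were measured, and Itgax, the gene of CD11c, was at 13.16 and 12.46 log2 units with SAHA and at 13.40 and 12.44 in control. The MHC class II genes H2-Aa, H2-Ab1 and H2-Eb1 and their chaperone Cd74 lay between 13.60 and 14.45 on every array. Cd209a and Xcr1, markers of dendritic cell subsets, lay between 3.82 and 4.68 on every array, near the 25th percentile of the arrays (3.94 to 4.04). Irf4, a transcription factor of dendritic cells, was at 0.81 on the log2 scale and passed (limma, adjusted p = 0.0431), and no other of the 13 did (2 at an unadjusted p under 0.05, which 18.1% of all genes had). The Irf4 call was lost in 7 of 15 alternatives, among them those without SAHA replicate 1 (adjusted p = 0.279), without SAHA replicate 2 (0.154) and without control replicate 2 (0.105), and the mean of its probe sets gave 0.53 (0.215). The other gene under that level was the chemokine receptor Ccr7, at -0.49 (adjusted p = 0.118) with no overlap. Macrophage markers had summed linear values of 39007 and 41301 with SAHA and 43179 and 44621 in control. None of the 6 measured passed (1 at an unadjusted p under 0.05). All 6 changes were below 0, as were those of 10693 of all 18194 genes. In 4 of the 6 both SAHA arrays lay below both control arrays, as in 29.6% of all genes. The 2 largest differences among the macrophage markers were Mertk at -0.92 (limma, adjusted p = 0.0509, and 0.0452 with robust spread and 0.0488 after quantile normalization) and Fcgr1 at -0.46 (0.709). Of 9 neutrophil markers 5 fell and 1, Prtn3, rose, where 0.709% of all genes fell and 1.52% rose. The summed linear value of the 9 was 2183 and 2243 with SAHA and 3450 and 3453 in control, and none of the 9 was under the 25th percentile on all arrays. Among the neutrophil genes Prtn3 changed by 3.65 on the log2 scale, Ngp by -1.88, Ltf by -1.56 and S100a9 by -1.51. Without SAHA replicate 1 the calls of Ngp (adjusted p = 0.0593), Ltf (0.138) and S100a9 (0.0901) were lost, and without SAHA replicate 2 that of Ltf (0.0606). Among 18 measured markers of B, T and NK cells, mast cells and erythroid cells none passed. Their summed linear values per list lay at 40.9 to 262 with SAHA and 38.4 to 298 in control. The part of these other cell types in the results below was not tested, and in bulk RNA a change in the number of cells of a type and in RNA per cell cannot be told apart. With 2 arrays against 2, exact permutation of the arrays for a single gene allows no two-sided p below 0.333, so the calls rest on limma's spread shared across genes, and the number of arrays limits every value.

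Ppm1k encodes the phosphatase of the branched-chain ketoacid dehydrogenase, the mitochondrial enzyme complex that commits leucine, isoleucine and valine to breakdown. It was at 9.58 and 9.71 log2 units in SAHA-treated cells, against 8.48 and 8.42 in control cells. Both SAHA arrays were above both control arrays, and the gap was wider than the spread inside either group. The log2 change was 1.20 ± 0.14 (SE), a 2.29-fold rise with a 95% interval of 1.81 to 2.90 (limma, adjusted p = 0.0186). A second probe set of Ppm1k had 7.32 and 7.37 with SAHA and 6.90 and 6.93 in control. Its SAHA values were also above its control values, by 0.43 on the log2 scale, but it did not pass on its own (limma over all probe sets, adjusted p = 0.245). The call was lost with values under the 20th percentile raised to it (limma, adjusted p = 0.158). There the change stayed at 1.20, and 0 of all 18194 genes passed. It was also lost without SAHA replicate 1 (log2 change 1.26) and without SAHA replicate 2 (1.13). The change itself was kept within 0.81 to 1.26 in 15 alternative analyses (limma, adjusted p 2.21e-05 to 0.158).

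Ppm1j, known as PP2C-zeta and described in mouse testicular germ cells, was at 7.51 and 6.88 log2 units with SAHA and at 5.59 and 5.65 in control. The SAHA arrays lay well apart and the control arrays nearly together, and all SAHA values were above all control values. The log2 change was 1.57 ± 0.23 (SE), a 2.98-fold rise with a 95% interval of 2.04 to 4.35 (limma, adjusted p = 0.0316). Its single probe set leaves no second reading. Without SAHA replicate 1, the higher of the treated arrays, the change was 1.26 and the call was lost (adjusted p = 0.128), as it was with values floored at the 20th percentile (0.199). The floor left the change at 1.57, and under it 0 of all 18194 genes passed. Over 14 alternatives the change ran from 1.14 to 1.89 (limma, adjusted p 3.46e-05 to 0.199). Of all 18194 genes, Ppm1j had the rise of rank 88 and Ppm1k that of rank 176, counted from the largest.

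**Figure D2:**
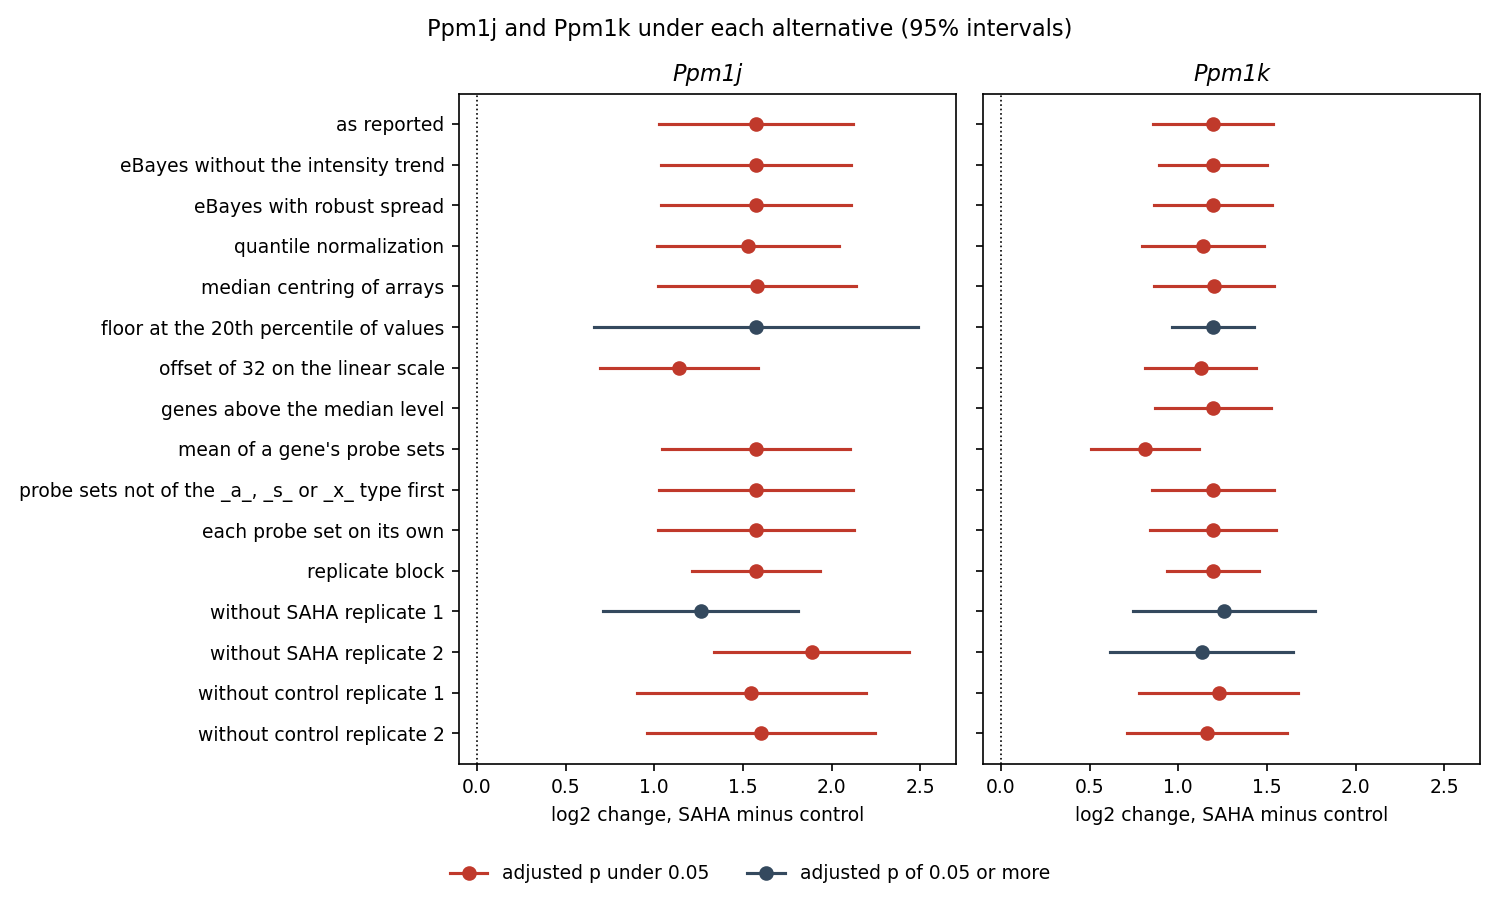
Log2 change (SAHA minus control) of Ppm1j, left, and Ppm1k, right, as reported and under each alternative analysis. Points are estimates and lines 95% intervals. Red marks an adjusted p under 0.05. Every interval lies above 0, and calls are lost when values are floored at the 20th percentile, without SAHA replicate 1 and, for Ppm1k, without SAHA replicate 2. Ppm1j has no point among genes above the median level because its mean is below that median.

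The sequence before both rising genes is shown because these 2 members rose. RefSeq (GRCm38.p6) gave promoter windows of 300 bases, 250 before and 50 after a start, for 9 of the 10 genes, 12 windows in all. The stretches below are the parts of those windows outside the annotated gene, 5′ to 3′ on the gene's own strand. They cover chr3:104780806-104780951 on the plus strand for Ppm1j and chr6:57535553-57535737 on the minus strand for Ppm1k. Capitals mark matches, on either strand, to the GC box with letters GGGCGG or to the box CCAAT. The others searched were the TATA box as TATAAA, the E-box as CACGTG and the CRE as TGACGTCA, and no match to one overlapped a match to another in the stretches shown.
Ppm1j: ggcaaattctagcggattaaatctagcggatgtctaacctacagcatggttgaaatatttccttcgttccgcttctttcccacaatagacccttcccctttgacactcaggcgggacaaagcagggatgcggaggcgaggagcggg
Ppm1k: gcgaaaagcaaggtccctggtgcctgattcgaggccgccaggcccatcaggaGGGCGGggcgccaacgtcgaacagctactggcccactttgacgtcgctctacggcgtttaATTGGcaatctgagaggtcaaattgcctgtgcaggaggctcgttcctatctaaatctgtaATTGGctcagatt
The Ppm1j stretch holds no match, and that of Ppm1k holds 1 GC box and 2 CCAAT boxes. In the full 300-base windows the GC box was found 4 times for Ppm1j and 2 times for Ppm1k. Of the 12 family windows 8 held it, from 7 genes that include Ppm1a, Ppm1d and Ppm1g, whose changes did not pass. Over all 32851 windows 35.7% held the GC box, 37.4% the CCAAT box, 13.6% the TATA box, 7.15% the E-box and 1.79% the CRE. The CCAAT box was found in 4 of the 12 family windows, the TATA box in 1, the CRE in 2 (Ppm1a and Ppm1d) and the E-box in 0. GC content was 60.7% in the Ppm1j window and 52.7% in that of Ppm1k, both within the 45.0% to 78.0% of the family, where all windows have a median of 52.7%. These matches are letters in a window and say nothing of a factor's binding.

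Ppm1h and Ppm1m belong to the same subgroup as Ppm1j. Ppm1h, which in human cells removes the phosphate that the kinase LRRK2 puts on RAB GTPases, had 9.27 and 9.34 log2 units with SAHA and 9.46 and 9.06 in control. The groups overlapped and the change was 0.05 (95% interval -0.37 to 0.47). Its second probe set read otherwise, at 7.63 and 7.95 with SAHA and 8.13 and 8.50 in control. There both SAHA arrays were below both control arrays, with a log2 change of -0.53 ± 0.20 (SE) and a 95% interval of -1.01 to -0.04. This probe set did not pass (limma over all probe sets, unadjusted p = 0.0366, adjusted p = 0.267). The probe sets of Ppm1h thus disagreed. Which transcripts each of them reads was not examined. Ppm1m, known as PP2C-eta and reported to dampen IL-1 signalling to NF-kB, had 10.40 and 10.11 with SAHA and 10.07 and 9.96 in control. The SAHA values were the higher ones, by 0.23 (95% interval -0.13 to 0.60, adjusted p = 0.471).

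Ppm1a, Ppm1b and Ppm1l are best known as brakes on stress kinases. Ppm1a, PP2C-alpha, which acts on p38, on JNK pathway kinases and on SMAD2 and SMAD3, had 10.53 and 10.48 log2 units with SAHA and 10.59 and 10.52 in control. The change was -0.05 (95% interval -0.35 to 0.25), and the arrays of both groups interleaved. Of its 8 probe sets, 2 were under the 25th percentile on all arrays. The other 5 beside the one read for the gene had changes of -0.35 to 0.20, and none passed. The lowest of these, with 5.89 and 5.91 with SAHA and 6.25 and 6.26 in control, did not overlap (adjusted p = 0.313). Ppm1b, PP2C-beta, known for dephosphorylating TAK1, the IKK-beta kinase and RIPK3, had 9.88 and 10.06 with SAHA and 9.82 and 10.06 in control. Its change was 0.03 (95% interval -0.34 to 0.40), and further probe sets gave -0.01 and -0.26. Ppm1l, a phosphatase of the endoplasmic reticulum membrane that acts on TAK1 and ASK1, had 5.55 and 5.55 with SAHA and 5.41 and 5.50 in control. The change was 0.10 (95% interval -0.23 to 0.43), and its 2 further probe sets gave -0.02 and -0.13.

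Ppm1d, Ppm1f and Ppm1g act on DNA damage signalling, the cytoskeleton and nuclear RNA processing. Ppm1d, or Wip1, is induced by p53 and switches off ATM, p53 and p38. It had 7.67 and 7.37 log2 units with SAHA and 7.58 and 7.60 in control, with the SAHA arrays on either side of both control arrays. The change was -0.07 (95% interval -0.48 to 0.33), and the second probe set gave -0.13. Ppm1f, or POPX2, which dephosphorylates CaM kinase II and PAK kinases, had 7.89 and 7.58 with SAHA and 7.54 and 7.49 in control, a change of 0.23 (95% interval -0.18 to 0.63). A second, dim probe set gave 0.03. Ppm1g, a nuclear phosphatase tied in human cells to splicing and to the release of the transcription factor P-TEFb, had 10.35 and 10.18 with SAHA and 10.11 and 9.82 in control. It had the highest change of the 8 genes that did not pass, 0.30 (95% interval -0.08 to 0.68, adjusted p = 0.383).

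In 6 of the 10 genes (Ppm1f, Ppm1g, Ppm1j, Ppm1k, Ppm1l and Ppm1m) both SAHA arrays lay above both control arrays, and in 0 below. Over all genes 50.7% had groups that did not overlap, 21.1% on the higher side and 29.6% on the lower side. Of the 25 probe sets 10 had groups that did not overlap, 7 of them higher and 3 lower with SAHA. Over all 34958 probe sets with 1 symbol 48.8% did not overlap, 21.2% on the higher side and 27.6% on the lower side. On their own, 2 of the 25 passed, those read for Ppm1j and Ppm1k, where 1.11% of all probe sets passed.

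**Figure D3:**
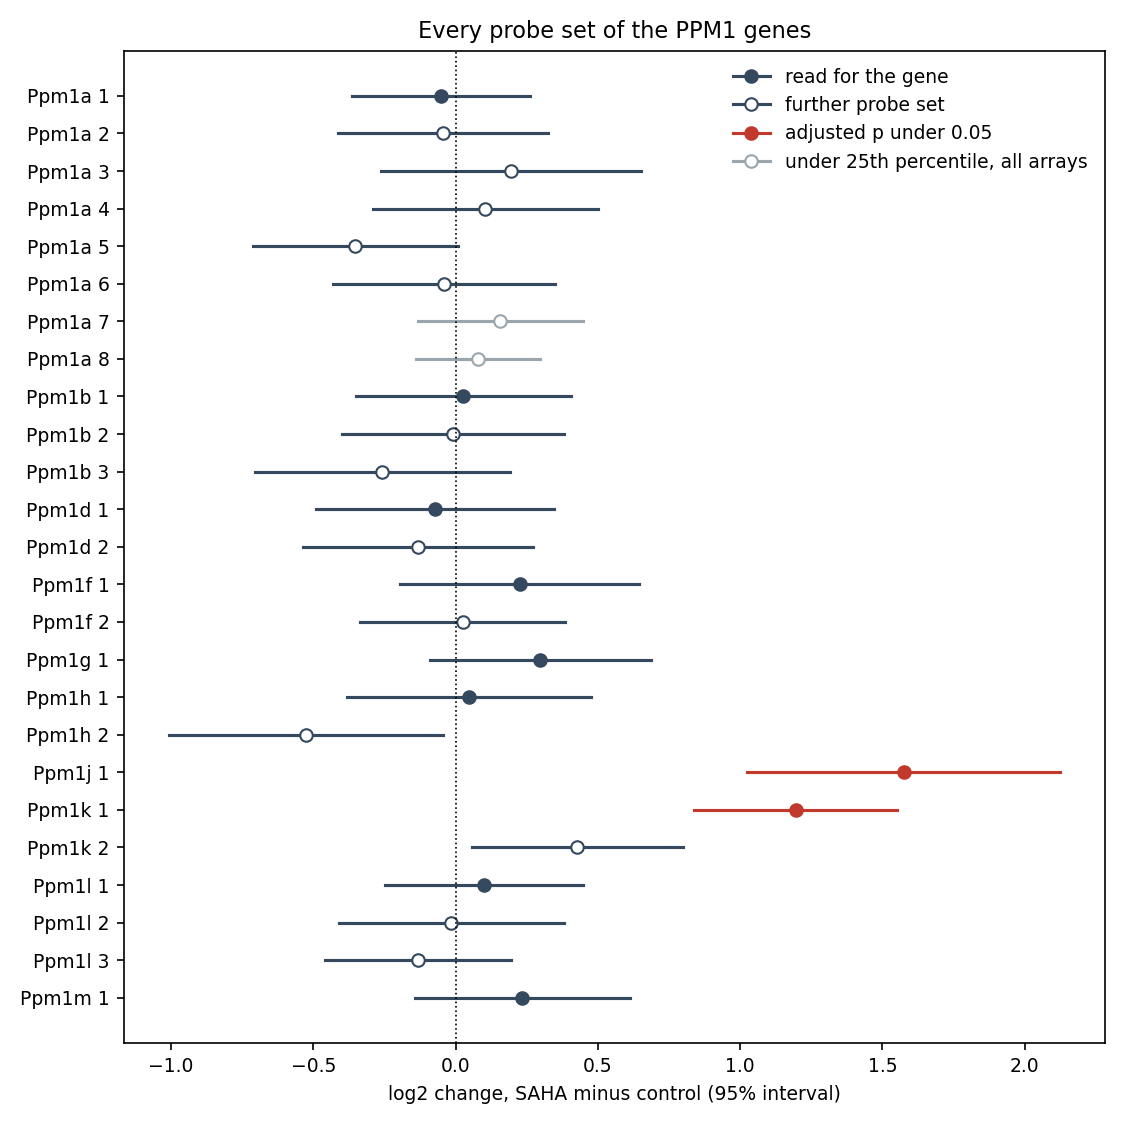
Log2 change (SAHA minus control) with its 95% interval for all 25 probe sets of the 10 PPM genes, numbered within a gene from the highest mean down. Filled points are the probe sets read for a gene, open points the further ones, grey those under the 25th percentile of every array. The Ppm1j probe set and the first of Ppm1k are the 2 that passed. The second of Ppm1k lies to the right of 0 at 0.43 and that of Ppm1h to the left at -0.53.

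Other genes of the PPM family gave no call. Of 10 on that list 9 were measured, none passed (limma) and none had an unadjusted p under 0.05. Their median change was 0.00 and the lowest adjusted p 0.316. The phosphatases that reactivate the pyruvate dehydrogenase complex were Pdp2 at -0.45, with 5.93 and 6.10 with SAHA and 6.70 and 6.21 in control, and Pdp1 at -0.30. Phlpp1, which acts on AKT, was at -0.30, with 9.30 and 9.62 with SAHA and 9.74 and 9.77 in control, and its relative Phlpp2 at 0.12. Pptc7, a mitochondrial phosphatase, was at 0.12, Ilkap, a partner of integrin-linked kinase signalling, at -0.10, and Tab1, an inactive family member that activates TAK1, at 0.00. Ppm1n was at 0.19, and Ppm1e was under the 25th percentile on all 4 arrays, at 3.30 and 3.74 with SAHA and 3.38 and 3.55 in control. The PPP family catalytic subunits also gave none among 12 measured (limma), with a median of -0.11 and 11 of the 12 below 0. Of the 12, 1 had an unadjusted p under 0.05, where 18.1% of all genes did. Ppp3cc, a calcineurin subunit, had the largest difference there at -0.46 (adjusted p = 0.153) and Ppp2cb, of PP2A, the next at -0.30 (0.398).

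**Figure D4:**
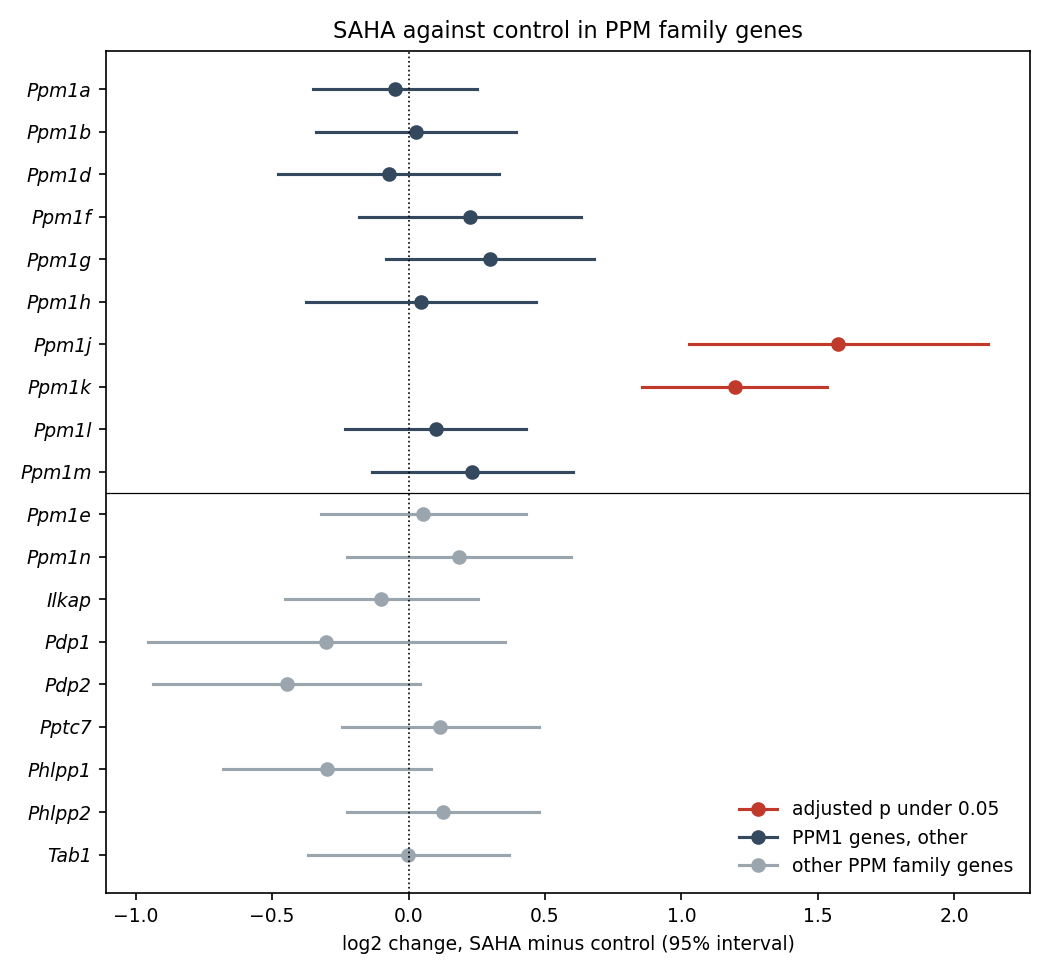
Log2 change (SAHA minus control) with its 95% interval for the 10 PPM genes, above the line, and 9 other PPM family genes, below it. Red marks an adjusted p under 0.05. The intervals of Ppm1j and Ppm1k lie wholly above 0 and those of the other 17 genes hold 0.

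The pathway in which Ppm1k acts was followed through 12 genes of branched-chain amino acid breakdown. Of these 1 rose, where 1.52% of all genes did, and none fell. At an unadjusted p under 0.05 there were 3 of the 12, where 18.1% of all genes lay, and the median log2 change was 0.31 against -0.05 over all genes. Hibch, which hydrolyses an intermediate of valine breakdown, had 7.07 and 6.73 with SAHA and 5.78 and 5.86 in control. It rose 2.12-fold (log2 change 1.08 ± 0.18, SE, limma adjusted p = 0.0405), and the call was lost in 9 of 14 alternatives. These were the fits without any 1 of the 4 arrays (0.91 to 1.26 on the log2 scale, adjusted p 0.0540 to 0.242), values floored at the 20th percentile (0.191), an offset of 32 on the linear scale (0.78, 0.0537), each probe set on its own (0.0531) and both other choices of probe sets. The suffix of this probe set marks sequence shared between transcripts. Its second probe set lay under the 25th percentile on all arrays and gave 0.22 (adjusted p = 0.383), and the mean of both gave 0.65 (adjusted p = 0.0735). In 6 of the 12 both SAHA arrays were above both control arrays and in 1 below, against 21.1% and 29.6% of all genes. Bckdha, the subunit that Ppm1k dephosphorylates, had 8.90 and 8.66 with SAHA and 8.33 and 8.22 in control, a change of 0.50 (adjusted p = 0.174). Bckdk, the kinase that opposes Ppm1k, was the 1 gene with SAHA arrays below, at 8.84 and 8.69 with SAHA and 9.05 and 8.92 in control, a change of -0.22 (adjusted p = 0.484). Bckdha and Bckdk were picked with their values in view. The related pyruvate dehydrogenase list gave no call among 9 (limma, 1 at an unadjusted p under 0.05, median 0.00). Its largest differences were those of the inhibitory kinases Pdk2 at 0.89 (adjusted p = 0.0614) and Pdk3 at 0.35 (0.325).

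The kinase that Ppm1h opposes was followed through a list of LRRK2, its relative LRRK1, RAB substrates of LRRK2 and binders of those RABs. Of these 15 genes 1 rose and none fell (3 at an unadjusted p under 0.05, median 0.07). Over all genes 1.52% rose and 0.709% fell, and 18.1% had an unadjusted p under 0.05 (limma). Rilpl1, which binds RAB proteins phosphorylated by LRRK2, had 7.68 and 7.25 with SAHA and 5.80 and 5.88 in control. It rose 3.08-fold (log2 change 1.62 ± 0.19, SE, limma adjusted p = 0.0180), and the call was lost without SAHA replicate 1 (1.41, adjusted p = 0.108). A further probe set gave 1.54 and passed on its own, and another 2 gave 0.04 and 0.20. The 2 that passed carry the suffixes _a_at, for the brighter, and _x_at, which do not mark the same kind of shared sequence. What else their probes match was not examined. The other 2 carry no such suffix, and read by the brighter of them the gene had a change of 0.04 (limma, adjusted p = 0.926). The mean of all 4 gave 0.85 (adjusted p = 0.0361).

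The kinases and SMADs on which other PPM enzymes act gave no call. Of 17 TAK1, p38, JNK and IKK kinases none passed (limma, 3 at an unadjusted p under 0.05, median 0.05). Over all genes 18.1% lay under that level. The p38-delta gene Mapk13 had 7.40 and 7.04 with SAHA and 6.19 and 5.54 in control, a change of 1.35 (adjusted p = 0.0564). Mapk13 passed with robust spread (limma, adjusted p = 0.0492). It did not after quantile normalization (0.0540) or with values floored at the 20th percentile (0.247). Leaving out 1 array at a time gave changes of 1.03 to 1.67. Ikbkb, which encodes IKK-beta, had 10.92 and 11.05 with SAHA and 11.47 and 11.58 in control, a change of -0.54 (adjusted p = 0.0927). Its further probe sets gave -1.11 to -0.17, and none passed. Of 14 SMADs and receptors of the TGF-beta family none passed (3 at an unadjusted p under 0.05, median -0.01), with Smad2 at -0.48 (adjusted p = 0.143) and the BMP receptor Bmpr2 at 0.42 (0.226). Both have a further probe set with another value, at 0.17 for Smad2 and 0.01 for Bmpr2, which has another at -0.14.

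In the p53 and DNA damage list, which holds targets of Ppm1d, none of 13 passed (limma, 5 at an unadjusted p under 0.05, median -0.08). Over all genes 18.1% lay under that level, to be set beside this count and those of the lists below. The damage kinase Atm was at 8.06 and 7.96 with SAHA and 7.19 and 6.70 in control, a change of 1.06 (limma, adjusted p = 0.0583). Leaving out 1 array at a time gave Atm changes of 0.82 to 1.30. Its second probe set gave 0.43 (limma over all probe sets, adjusted p = 0.313), and the mean of both gave 0.74 (limma, adjusted p = 0.112). Xpc, a sensor of helix-distorting lesions, had a change of 0.81 (adjusted p = 0.0796). The other genes of this list at an unadjusted p under 0.05 (limma) were all lower with SAHA, at -0.71 to -0.54. Of 12 CaM kinases, PAK kinases and PIX factors, partners of Ppm1f, none passed (2 at an unadjusted p under 0.05) and 10 were below 0, with a median of -0.17. Camk1d was at -0.68 (adjusted p = 0.252), and its further probe sets gave 0.16 and -0.08. Camk2a was at -0.44 (0.222), with further probe sets at -0.39 to -0.17. Of 7 genes of P-TEFb and the 7SK complex, where Ppm1g acts, none passed (2 at an unadjusted p under 0.05, median 0.16), with Larp7 at -0.49 (0.262) and Ccnt1 at 0.44 (0.241). Of 4 necroptosis and ER stress genes none passed (2 at an unadjusted p under 0.05, median 0.03). Ern1, the stress sensor IRE1-alpha, was at 0.68 (adjusted p = 0.0646), with further probe sets at 0.06 to 0.61. Mlkl, the pore-forming protein downstream of RIPK3, was at -0.68 (0.256).

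**Figure D5:**
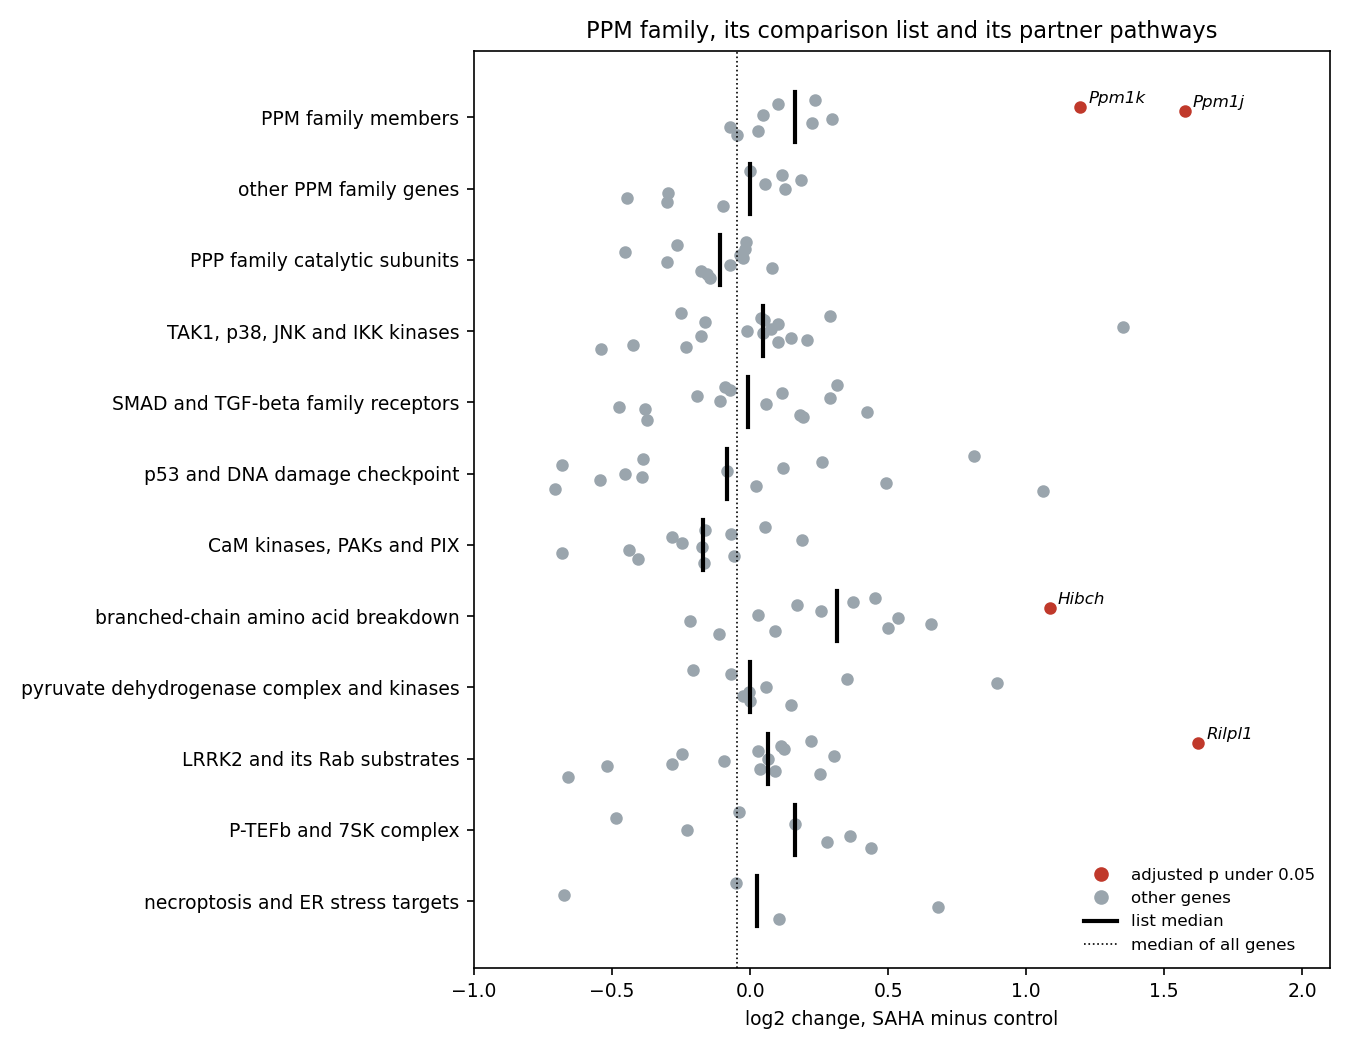
Log2 change (SAHA minus control) of each measured gene in the PPM family, the PPP catalytic subunits and the lists of partner pathways. Dots are genes, red those with an adjusted p under 0.05, black bars list medians, and the dotted line is the median of all genes at -0.05. Ppm1j, Ppm1k, Hibch and Rilpl1 are the 4 red genes, and the branched-chain list has the highest median, 0.31.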

How the data were processed

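Biotin-labelled cRNA from total RNA was hybridised to Affymetrix arrays, per the labels' protocols. The authors deposited 1 table of log2 values for 45101 probe sets, between 2.59 and 15.0 with array medians of 5.34 to 5.35. That the scale is log2 was read from the values. The submitters' processing notes list R 2.7. Neither the labels nor the file names the summarisation or normalization. Of the probe sets 34958 had 1 gene symbol in the platform annotation, which can be old, 932 several and 9211 none, and the last 2 kinds were not used. No probe set with several symbols named a member. Symbols were updated by Entrez identifier for 34754.

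SAHA and control arrays, grouped by sample title, entered 1 fit with limma 3.58.1 (R 4.3.3, lmFit, eBayes with trend, two-sided, no covariate, no filter), with Benjamini-Hochberg adjustment over 18194 genes and a threshold of 0.05. Values give no read depth. On simulated arrays with 200 changed genes among 18194, 5 draws, the fit called 24.8% of 2-fold and 76.0% of 4-fold changes, and 2.14% of calls were false. These percentages hold for the simulated arrays, and the share of false calls on the real arrays was not tested.

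The members and lists were chosen with earlier results of these data known. Named are all members and other PPM family genes, and per list up to 4 genes past the threshold with the largest changes, or else the 2 largest. Outside this rule Bckdha, Bckdk, Itgax, Ccr7, Cd209a, Xcr1 and the MHC class II genes with Cd74 were picked with their values in view. The marker lists of B, T, NK, mast and erythroid cells are given as counts. Same-numbered arrays are tied by no label, and with 2 pairs the numbers were not taken to pair them. Promoter windows came from RefSeq (GRCm38.p6), and no build is named for the values.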

Additional observations from a re-analysis of the deposited data

How the results depend on the processing

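Each result was recomputed under 15 alternatives. The 2 PPM genes past the threshold stayed 2 in 11 of them. They were 0 when values under the 20th percentile were raised to it (0 of all genes) and 0 without SAHA replicate 1. They were 1 without SAHA replicate 2, and 1 among genes above the median level, a set that leaves out Ppm1j by construction. The 4 fits without 1 array gave 0 to 2 PPM genes, all higher with SAHA, and 31 to 529 of all genes, 25 to 362 higher and 6 to 167 lower. No alternative called a PPM gene lower. Of all genes 405 passed as reported (276 higher, 129 lower, 3287 at an unadjusted p under 0.05). The floor gave 0 higher and 0 lower, genes above the median level 226 (154 higher, 72 lower), and averaged probe sets 84 lower. The floor did not alter the changes of Ppm1j and Ppm1k, and the cause of the loss under it was not tested.

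With replicate number as a block 3616 genes passed (1954 higher, 1662 lower), and 2 PPM genes. The replicate differences of both groups correlated at 0.567 across genes. No label ties the numbers to a culture, so this pairing is given here alone. It also carried 17 of the other named genes past the threshold. In other alternatives 5 values passed that had not, of Mapk13, Mertk and Atm. Over all 36 other named genes 27 values lost the threshold under some alternative.

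Of 148 values of the 10 PPM genes 134 kept their direction and side of the threshold, 5 of Ppm1j and Ppm1k lost the threshold and 9 turned direction, all of genes that never passed. Averaged probe sets turned Ppm1a (0.0063), Ppm1b (-0.079), Ppm1h (-0.24), Ppm1l (-0.016), Phlpp2 (-0.057) and Tab1 (0.020). Quantile normalization turned Ppm1b (-0.017), and median centring Tab1 (0.0029). Reading genes first by probe sets without a suffix for shared sequence turned Ppp2cb (0.091) and Smad2 (0.17). Leaving out 1 array at a time gave changes on both sides of 0 for 9 named genes, namely Ppm1b -0.094 to 0.15, Ppm1d -0.22 to 0.080, Ppm1h -0.15 to 0.25, Ppm1e -0.16 to 0.27, Ppm1n -0.036 to 0.41, Pdp1 -0.63 to 0.032, Pptc7 -0.0084 to 0.24, Tab1 -0.083 to 0.081 and Fcgr1 -1.22 to 0.31. These 4 fits borrow the spread of a group left with 1 array from the other group. Arrays give no read depth, and the table holds no background level against which dim probe sets could be judged.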
